A study of Homo sapiens with 8 samples.

Results

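A set of 10 genes for secreted matrix glycoproteins was followed, chosen by name as abundant extracellular matrix products and found by Ensembl identifier among the 60664 genes of the count tables: FN1, THBS1, THBS2, FBN1, FBN2, SPARC, TNC, HSPG2, FBLN1 and TGFBI. All 10 were present in the tables of both cell lines, and all 10 passed the filter on low counts in every comparison. The study used selective ribosome profiling, in which the mRNA fragments protected by ribosomes are sequenced once from all ribosomes (input) and once from the ribosomes recovered through a tagged chaperone (pulldown). The cells were U2OS, a human osteosarcoma line, carrying a HaloTag on the endogenous TRiC subunit CCT4 (CCT4-Halo) or on the endogenous prefoldin subunit PFDN4 (PFDN4-Halo); each tagged line was a clone made by CRISPR knock-in. All cultures, inputs included, received cycloheximide at 100 µg per ml for 1 min, which arrests ribosomes, and then the crosslinker DSP at 2 mM for 30 min. Input and pulldown of each line, called TRiC and PFD here after the complex that was tagged, make 4 groups of 2 biological replicates.

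Matrix glycoproteins carry a signal peptide that directs the translating ribosome to the endoplasmic reticulum (ER), where the chain enters the lumen, folds, forms disulfide bonds and is glycosylated before secretion. TRiC, a ring-shaped chaperonin, and prefoldin (PFD), which hands clients to it, work in the cytosol, so that the chains of these genes and the chaperones are for the most part on opposite sides of a membrane. Outside the cell the proteins assemble into fibrils, microfibrils and basement membranes, bind integrins and other receptors, and store growth factors. Mesenchymal and bone-derived cells are known for a high output of them.

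The libraries held 9523128 to 32637658 counts. The 10 genes took 2.72% to 3.24% of the counts in the 4 PFD-line libraries and 0.886% to 0.927% in the 4 TRiC-line libraries. Of 13 mesenchymal and bone-lineage markers, 7 had at least 100 counts in each of the 8 libraries, among them VIM, COL1A1 and RUNX2, whereas IBSP was at 0 in all libraries, BGLAP did not exceed 24 counts and COL1A2 did not exceed 66. TWIST1 did not exceed 11 counts, and PRRX1 and ALPL fell to 6 and 62 counts in their lowest libraries. The 11 epithelial, blood and endothelial markers summed to 34.8 to 56.3 CPM (counts-per-million of the library's scaled total) in the PFD-line and 84.6 to 102 CPM in the TRiC-line libraries, with 2 of them, CD3E and HBB, at 0 throughout and CLDN4, a tight junction protein, at 111 to 2520 counts. KRT14, EPCAM, CDH5 and KRT5 reached 278, 277, 275 and 114 counts in their highest libraries. The part of these markers in the results was not tested. Within PFD pulldown the 2 libraries correlated less with each other (Pearson r = 0.916 over log2 CPM of genes) than within the other groups (0.967 to 0.992).

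The upstream sequences of 3 genes are shown because FN1 and THBS1 were the abundant genes that stood furthest apart between the lines in one direction and FBN1 stood furthest in the other. They were taken from the RefSeq promoter set on GRCh38.p14, which held all 10 genes, and were trimmed where exons begin. FN1 lies at chr2:215436074-215436318 on the minus strand and stops 5 bases before the RefSeq start site, THBS1 at chr15:39580829-39581078 on the plus strand, and FBN1 at chr15:48644971-48645220 on the minus strand, within the annotated gene body but outside its exons. Capitals mark a cyclic AMP response element (TGACGTCA, a palindrome) or a CCAAT box (CCAAT, or ATTGG on the other strand); the FBN1 window has neither.
FN1: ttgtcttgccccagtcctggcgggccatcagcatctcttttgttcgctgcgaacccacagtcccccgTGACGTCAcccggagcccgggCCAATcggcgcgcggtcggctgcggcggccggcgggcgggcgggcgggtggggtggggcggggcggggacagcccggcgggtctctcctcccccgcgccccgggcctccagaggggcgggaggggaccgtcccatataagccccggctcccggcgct
THBS1: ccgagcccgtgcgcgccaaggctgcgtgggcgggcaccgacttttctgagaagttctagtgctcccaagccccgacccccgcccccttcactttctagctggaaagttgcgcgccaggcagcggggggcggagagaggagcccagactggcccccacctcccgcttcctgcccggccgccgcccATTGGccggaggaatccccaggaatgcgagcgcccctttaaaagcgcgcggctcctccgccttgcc
FBN1: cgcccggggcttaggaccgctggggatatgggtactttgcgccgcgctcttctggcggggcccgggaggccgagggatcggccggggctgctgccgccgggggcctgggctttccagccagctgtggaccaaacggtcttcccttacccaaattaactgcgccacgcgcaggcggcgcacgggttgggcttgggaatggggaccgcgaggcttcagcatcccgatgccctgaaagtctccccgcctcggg
In windows from 250 bases before to 50 bases after the start, TGACGTCA occurred in FN1 alone of the 10 genes, at position -183, and in 1.85% of 35116 promoters. A CCAAT box occurred in FN1 at -162, in THBS1 at -66 and in FBN2 at -248, or 3 of 10 genes, and in 34.6% of all promoters. A GC box (GGGCGG, or CCGCCC on the other strand) was in 7 of 10 genes and 45.0% of promoters, and a TATA box, searched as TATAAA on both strands, was in THBS2 alone and in 11.5% of promoters. None of the marked CCAAT and TGACGTCA matches overlapped another. These matches describe the letters of the windows and say nothing on binding.

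Levels among the genes were compared as CPM per kb of coding sequence, on library sizes scaled over all 8 libraries. In the TRiC input SPARC, a collagen-binding glycoprotein of bone and remodelling tissue, was highest at 3411 ± 13.1 (SD, n = 2), followed by THBS1 at 374 ± 18.1, FN1 at 232 ± 6.71 and FBLN1 at 170 ± 7.86. TNC, FBN2, HSPG2 and TGFBI followed between 98.2 and 42.6, FBN1 was at 19.1 ± 0.607 and THBS2 was last at 0.0452 ± 0.0508. No neighbours in this order overlapped in the TRiC input. In the PFD input the order was THBS1 at 2988 ± 147, SPARC at 2455 ± 61.7, FN1 at 1674 ± 86.5, then TNC, FBLN1, HSPG2, TGFBI and FBN2 between 129 and 65.9, FBN1 at 6.06 ± 1.27 and THBS2 at 1.99 ± 0.292. There only TNC and FBLN1, neighbours in the order, overlapped between replicates. The order of the group means was the same in each pulldown as in its input. No neighbours overlapped in the TRiC pulldown. In the PFD pulldown THBS1 overlapped SPARC, TNC overlapped FBLN1 and TGFBI overlapped FBN2, so their order there is not firm. THBS2, with 1 to 312 counts in a library, goes against the description of the set as abundant, and FBN1 in the PFD line was also low.

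**Figure D1:**
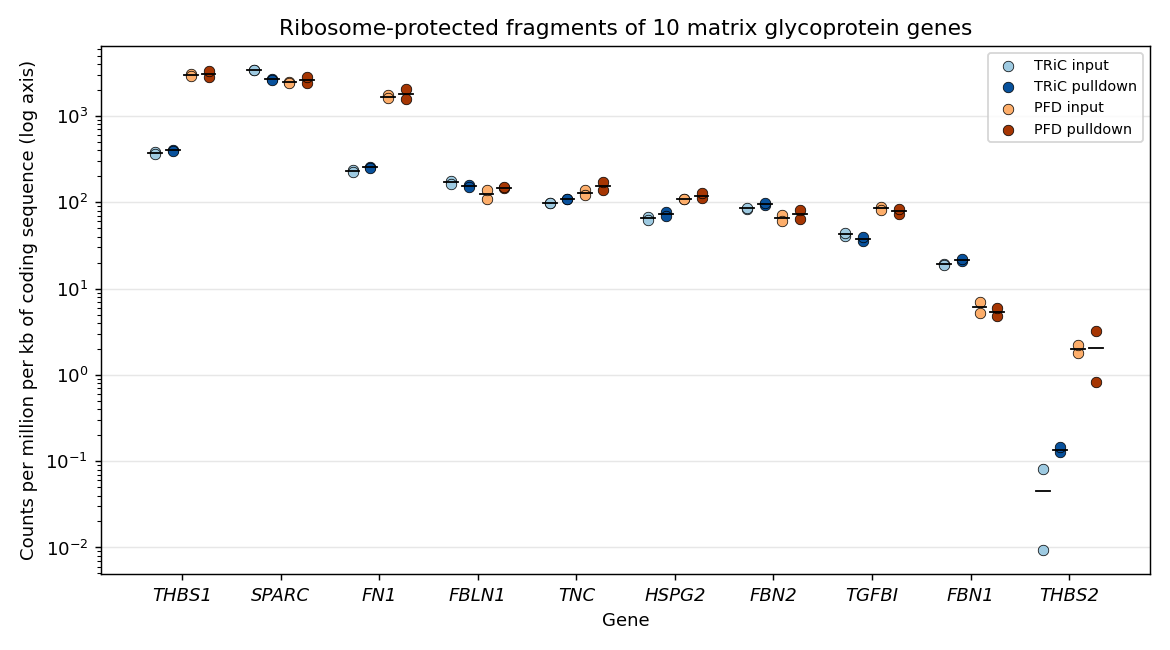
Level of the 10 genes in each library, as CPM per kb of coding sequence on a log axis; points are libraries, 2 in each group, and short bars are group means. FN1 and THBS1 lie higher in all 4 PFD-line libraries than in all 4 TRiC-line libraries, FBN1 lies lower, and pulldown and input of a line lie close together for every gene but THBS2.

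The inputs of both lines were compared to ask how far ribosome occupancy of these genes differed before any pulldown. FN1 and THBS1 were several-fold lower in the TRiC line and FBN1 was several-fold higher, so that the set did not move as one. All 10 genes were called at an adjusted p under 0.05 by edgeR's quasi-likelihood test, 4 higher in the TRiC input and 6 lower, and the 2 groups did not overlap for any of them. THBS2, 1 of the 6, passed the filter on low counts through the PFD inputs, where it was higher. With at least 100 counts in every library, 9 genes were tested, without THBS2, and 4 were called higher and 5 lower. Of the 16341 genes tested, 40.3% were called, 22.6% higher and 17.7% lower in the TRiC input, and 73.8% did not overlap, so most genes of any kind separate the lines by that measure. The median log2 fold change was -0.58 over the 10 genes and 0.11 over all genes tested. Line, clone and count table coincide in this comparison and cannot be told apart, and ribosome-protected fragments alone cannot separate more mRNA from more ribosomes per mRNA, or more producing cells from more per cell.

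FN1 encodes fibronectin, the fibril-forming ligand of several integrins. It had 12892 and 11983 CPM in the PFD inputs and 1758 and 1688 CPM in the TRiC inputs. FN1 alone took 1.27% and 1.21% of all counts in the PFD inputs against 0.171% in each TRiC input. The groups lay far apart, with FN1 7.22-fold lower in the TRiC line (log2 fold change -2.85, SE 0.05, edgeR adjusted p = 2.94e-05).

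THBS1 encodes thrombospondin-1, which binds CD36 and CD47 and can activate latent TGF-beta. It had 10851 and 10123 CPM in the PFD inputs and 1358 and 1268 CPM in the TRiC inputs. It was 7.99-fold lower in the TRiC line (log2 fold change -3.00, SE 0.06, edgeR adjusted p = 3.21e-05), a difference of the same order as that of FN1. THBS2, the closest relative of THBS1, had 118 and 80 counts in the PFD inputs and 8 and 1 counts in the TRiC inputs. Its summed counts, 198 against 9, gave a ratio of 44.2, PFD over TRiC, on scaled library sizes. An exact interval at 95% ran from 22.8 to 98.1 and covers counting error only. The edgeR log2 fold change was -5.43 (SE 0.96, adjusted p = 0.00916). The count of 1 makes the size of the THBS2 difference uncertain, and 31.2% of the exon sequence of THBS2 is shared with a gene on the other strand, against 7.58% for THBS1 and 0% for FN1; the strand column behind the counts is not given in the sources used here.

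The fibrillins form microfibrils that give elasticity and hold latent TGF-beta complexes. FBN1 had 59.9 and 44.5 CPM in the PFD inputs and 168 and 161 CPM in the TRiC inputs. It was 3.13-fold higher in the TRiC line (log2 fold change 1.65, SE 0.15, edgeR adjusted p = 0.00102), opposite to FN1 and THBS1. FBN2, the fibrillin of early development, had 623 and 529 CPM in the PFD inputs and 740 and 748 CPM in the TRiC inputs. It was 1.29-fold higher (log2 fold change 0.37, SE 0.09, edgeR adjusted p = 0.0212). FBN2 therefore exceeded FBN1 per kb in both lines, 65.9 against 6.06 in the PFD input and 85.2 against 19.1 in the TRiC input.

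SPARC had 2271 and 2192 CPM in the PFD inputs and 3092 and 3109 CPM in the TRiC inputs, and was 1.39-fold higher in the TRiC line (log2 fold change 0.47, SE 0.04, edgeR adjusted p = 0.00102). FBLN1, or fibulin-1, a calcium-binding protein of elastic fibres and basement membranes, had 233 and 296 CPM in the PFD inputs and 371 and 347 CPM in the TRiC inputs. Its replicates in the PFD line differed more than those of SPARC, and the log2 fold change was 0.44 (SE 0.12, edgeR adjusted p = 0.0323). TGFBI, an integrin-binding protein named for its induction by TGF-beta, had 181 and 168 CPM in the PFD inputs and 83.0 and 91.5 CPM in the TRiC inputs. It was 2.00-fold lower in the TRiC line (SE of the log2 fold change 0.09, edgeR adjusted p = 0.00101). HSPG2 encodes perlecan, the large heparan sulfate proteoglycan of basement membranes. It had 1445 and 1446 CPM in the PFD inputs and 890 and 826 CPM in the TRiC inputs, 1.69-fold lower (edgeR adjusted p = 0.00054). TNC encodes tenascin-C, a modulator of adhesion found at sites of remodelling. It had 911 and 797 CPM in the PFD inputs and 643 and 654 CPM in the TRiC inputs, the smallest fall of the 6 at 1.32-fold (edgeR adjusted p = 0.0113).

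**Figure D2:**
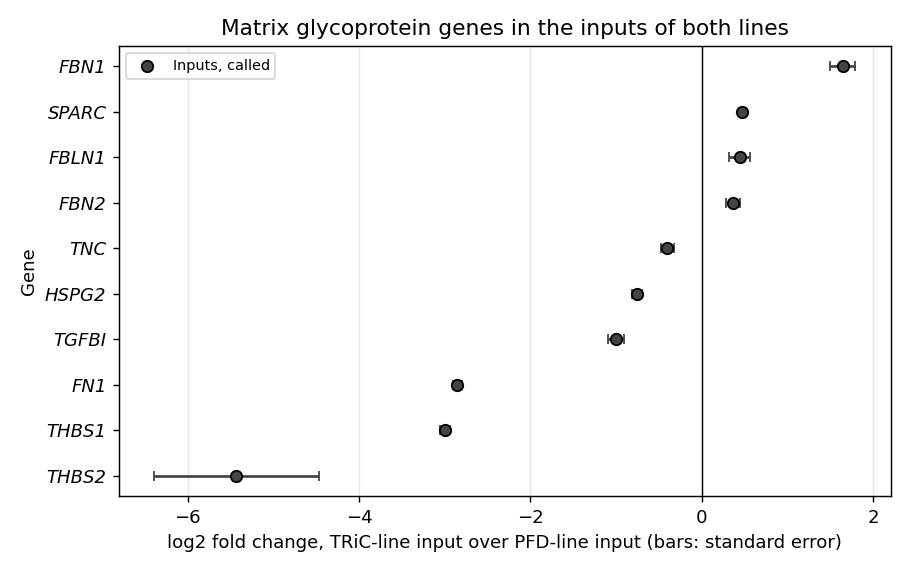
Log2 fold change of each gene, TRiC input over PFD input, from edgeR; bars are standard errors, filled points are called at an adjusted p under 0.05, and n = 2 libraries for each group. FBN1, SPARC, FBLN1 and FBN2 lie right of 0 and the other 6 genes left of it, with THBS2, THBS1 and FN1 furthest.

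The direction of all 10 held under every alternative run on this comparison. FBN2 lost its call in a fit of all 8 libraries (adjusted p = 0.0688), and THBS2 could not be tested with at least 100 counts in every library. Cyclic loess moved the median of all genes from 0.11 to -0.03, and FN1 and THBS1 stood at -2.67 and -2.82 under it.

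Genes that act with these glycoproteins were counted in the same fit, from lists drawn by function, to be read against the 22.6% higher and 17.7% lower of all genes tested. Among 24 tested matrix receptors, 10 were higher and 6 lower in the TRiC input, with a median log2 fold change of 0.52. ITGA2, the collagen-binding integrin alpha 2, was 8.12-fold lower and CD44, the hyaluronan receptor, was 6.15-fold lower. DDR2, a collagen-activated receptor tyrosine kinase, was 8.73-fold higher, and ITGA11, another collagen-binding integrin subunit, had 273 and 329 counts in the TRiC inputs and 0 in both PFD inputs, at least 46.0-fold higher at a floor of 3 counts in each library.

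Of 33 other matrix glycoproteins and proteoglycans tested, 13 were higher and 7 lower (median 0.78). LTBP1, which tethers latent TGF-beta to the matrix, was 5.50-fold lower and LUM, the collagen-binding proteoglycan lumican, was 5.04-fold lower. FBN3, the remaining fibrillin, had 132 and 319 counts in the TRiC inputs and at most 1 in the PFD inputs, and BGN, biglycan, had 280 and 310 counts against at most 8. Thus FBN1, FBN2 and FBN3 were all higher in the TRiC line, with FBN3 resting on few counts. Of 26 crosslinkers, proteases and inhibitors, 14 were higher and 8 lower (median 0.43). TGM2, a transglutaminase that crosslinks fibronectin among others, was 5.71-fold lower, whereas MMP15, a membrane-bound protease, was 4.98-fold higher and LOXL4, a lysyl oxidase, was 2.95-fold higher.

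Of 17 collagens, 9 were higher and 6 lower (median 0.63). COL6A3 was 6.15-fold lower and COL4A1 2.92-fold lower, while COL5A2 was 7.94-fold higher and COL3A1 was called higher at 1416 ± 58.9 CPM against 5.17 ± 4.15 (SD, n = 2), with a fold that is uncertain because the 2 PFD inputs held 42 and 84 counts and differed widely. Of 10 laminins, 4 were higher and 4 lower (median 0.20), with LAMA3 14.2-fold lower, LAMA5 6.16-fold higher, and LAMA4 called higher at 2165 and 2225 counts against 0 and 87. Of 18 genes of TGF-beta signalling, 5 were higher and 3 lower (median 0.12). TGFB2, a ligand, was 2.22-fold lower and ENG, a co-receptor, 2.42-fold lower, while TGFB3, another ligand, was 8.39-fold higher and TGFBR3, a co-receptor, was called higher at 17.9 ± 2.66 CPM against 5.37 ± 3.22. Of the 34 genes for ER targeting, translocation and N-glycosylation, 2 were higher and 17 lower (median -0.37). SSR3, a subunit of the translocon-associated protein complex, was 3.45-fold lower and SPCS3, of the signal peptidase, 2.61-fold lower; the 2 higher genes were OST4, a subunit of the oligosaccharyltransferase, and SRP14, of the signal recognition particle. Every gene named from these lists was called by edgeR's quasi-likelihood test, with adjusted p from 4.91e-05 (COL6A3) to 0.0287 (TGFBR3).

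The TRiC pulldown was compared with the TRiC input to ask which of these nascent chains were over- or under-represented on TRiC-bound ribosomes. SPARC was lower, and no gene of the 10 was called higher. SPARC had 3092 and 3109 CPM in the inputs and 2473 and 2348 CPM in the pulldowns. Both pulldowns lay below both inputs, at 0.798 and 0.757 of the mean input, and the log2 fold change was -0.36 (SE 0.06, edgeR adjusted p = 0.000404). Among all 17934 genes tested, 10.6% were called lower and 8.64% higher; without TMM scaling the higher share of the calls was 58.7% in place of 45.0%. The fall of SPARC was called without each library in turn, but not under cyclic loess (log2 fold change -0.16, adjusted p = 0.0511) or in the fit of all 8 libraries, where the log2 fold change stayed at -0.36 with an SE of 0.09 (adjusted p = 0.241).

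The other 9 genes were not called, with 7 above 0, THBS2 among them, and 2 below. FN1 had 1758 and 1688 CPM in the inputs and 1930 and 1868 CPM in the pulldowns, with a log2 value of 0.14 (SE 0.06, edgeR adjusted p = 0.11). FBN2 had 740 and 748 CPM in the inputs and 821 and 861 CPM in the pulldowns, with a log2 value of 0.18 (SE 0.06, edgeR adjusted p = 0.0594), the lowest adjusted p of the 9. The pulldowns of these fibril proteins lay just above their inputs. THBS1, TNC, HSPG2 and FBN1 had log2 fold changes of 0.10 to 0.17, with adjusted p from 0.0959 (TNC) to 0.295 (THBS1). FBLN1, at 371 and 347 CPM in the inputs and 331 and 318 CPM in the pulldowns, and TGFBI, at 83.0 and 91.5 CPM and then 73.8 and 80.7 CPM, had values of -0.15 (SE 0.07) and -0.18 (SE 0.09). THBS2 counts were 8 and 1 before and 15 and 13 after the pulldown, too few to read a direction from its value of 1.58 (SE 1.08). It passed the filter on low counts through the pulldowns, where it was higher. With at least 100 counts in every library, 9 genes were tested, without THBS2, and 6 of them were above 0.

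The 2 groups did not overlap for any of the 10 genes, a separation that 60.5% of all genes tested showed as well. THBS2, with few counts, is part of this and of the median over the 10 genes. The median was 0.15 over the 10 genes and -0.0032 over all genes tested. At an unadjusted p under 0.05, 5 genes were higher (FN1, FBN1, FBN2, TNC and HSPG2) and SPARC was lower, where 15.3% of all genes tested were higher and 17.2% lower. How many were called higher depended on the setting. DESeq2 called FBN2 and TNC, where 1411 of all 17934 genes tested were called higher. The filter of at least 100 counts called the 5 genes just named, where 1699 of 11166 were. Cyclic loess called those 5 and THBS1, where 1569 of 17934 were. Without TRiC pulldown replicate 1 FBN2 was called higher, and without replicate 2 FN1, TNC and HSPG2 were, where the lone pulldown is assumed to vary like the inputs.

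Coding length ran alongside these values. The 5 genes with more than 6000 coding bases, FN1, FBN1, FBN2, TNC and HSPG2, had log2 fold changes between 0.14 and 0.18, and the 3 with fewer than 2500, SPARC, FBLN1 and TGFBI, were all below 0. Over all tested coding genes the median was 0.28 for the 445 longer than 6000 bases, of which 83.6% were above 0, and -0.09 for the 11465 shorter than 2500. The rank correlation of length and log2 fold change was 0.77 over the 10 genes and 0.35 over all 14611 coding genes, as a description across genes that share the same 4 libraries. On log2 length Pearson's r was lower, 0.26 and 0.20, and in the PFD pulldown the rank correlation was 0.20 over the 10 genes and 0.074 over 12649 coding genes. The 0.77 and 0.26 include THBS2, whose value of 1.58 rests on 1 to 15 counts in a library. Neither was computed without THBS2. Both limits of length were chosen after the values were seen, and the part of length in the calls was not tested. The gene totals hold no position, so where along a coding sequence the fragments lay was not analysed here.

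**Figure D3:**
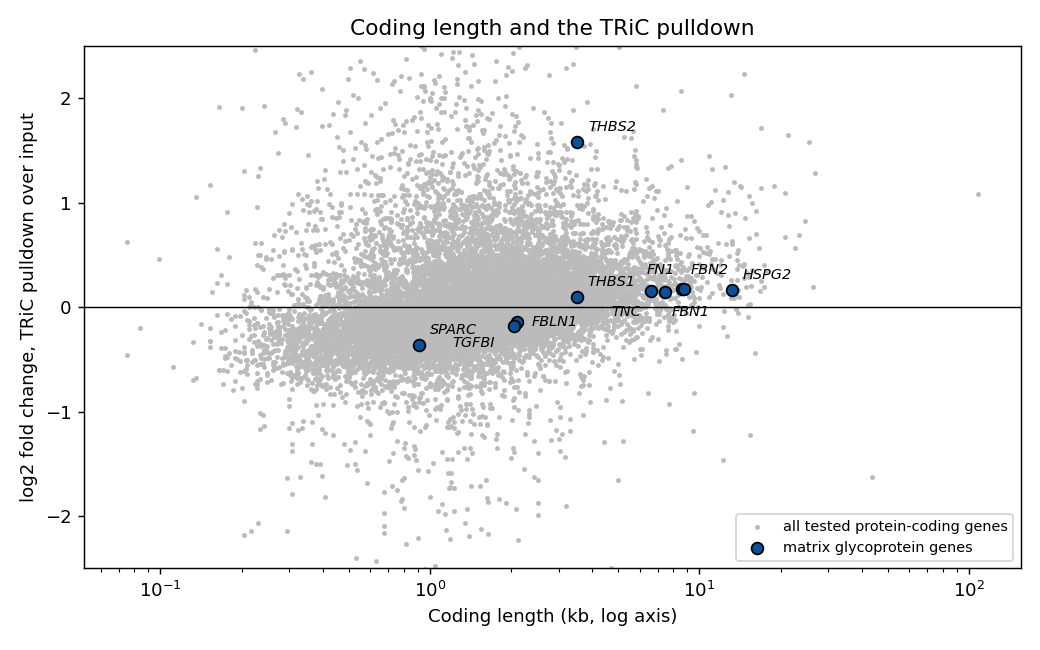
Log2 fold change, TRiC pulldown over TRiC input, against coding length in kb on a log axis; grey points are all tested coding genes, of which 114 lie beyond the vertical limits of -2.5 and 2.5, and blue points are the 10 matrix glycoprotein genes. SPARC, FBLN1 and TGFBI lie below 0 at the short end and FN1, TNC, FBN1, FBN2 and HSPG2 just above 0 at the long end, inside the cloud of genes of like length.

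The partner lists were counted in the TRiC pulldown too, where 10.6% of all genes tested were called lower and 8.64% higher. By coding length, 186 of the 445 coding genes longer than 6000 bases were called higher and 11 lower. Of the 11465 shorter than 2500 bases, 528 were higher and 1652 lower. The lists were not matched for length, and the part of length in their counts was not tested. Of 26 crosslinkers, proteases and inhibitors 9 were lower and none higher (median -0.15), including TGM2 at -0.48 and TIMP1, a metalloprotease inhibitor, at -0.38. Of 34 ER genes 9 were lower and none higher (median -0.11), including OST4 at -0.58 and SEC61B, of the protein-conducting channel, at -0.48. Of 17 collagens 5 were higher and 1 lower (median -0.02), with COL27A1 at 0.81, COL7A1 at 0.75 and COL6A2 at -0.22. LAMA5 at 0.46 and LAMA1 at 0.23 were the called laminins of 10 (median 0.03). Among 36 other matrix glycoproteins and proteoglycans 3 were higher and 3 lower (median -0.0012), with TNXB, a tenascin, at 1.10, THBS3, a thrombospondin, at 0.42, MFAP2, a microfibril protein that binds fibrillins, at -0.36 and IGFBP7 at -0.33. Of 24 receptors 1 was higher, the integrin subunit ITGB8 at 0.29, and 2 were lower, SDC4 at -0.27 and ITGB5 at -0.22 (median -0.02), and of 18 genes of TGF-beta signalling TGFB1 alone was called, lower at -0.33 (median 0.08). The named genes passed edgeR's quasi-likelihood test with adjusted p from 0.000149 (OST4) to 0.0483 (ITGB8).

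In the PFD pulldown none of the 10 genes was called against the PFD input by edgeR's quasi-likelihood test, nor by DESeq2, and 0.241% of 14111 genes tested were. At an unadjusted p under 0.05, TNC alone passed, 1 of 10 where 6.93% of all genes tested did. TNC had 911 and 797 CPM in the inputs and 920 and 1143 CPM in the pulldowns, with a log2 fold change of 0.28 (SE 0.11, edgeR adjusted p = 0.706). The pulldowns of TNC, HSPG2 and FBLN1 lay above their inputs without overlap and those of the other 7 overlapped them; 38.2% of all genes tested did not overlap. FBLN1 had 233 and 296 CPM in the inputs and 305 and 314 CPM in the pulldowns, with a log2 fold change of 0.24 (SE 0.15, edgeR adjusted p = 0.846). FN1 had 11727 and 15151 CPM in the pulldowns and THBS1 had 9906 and 11692 CPM, in both genes 1 value below and 1 above both inputs. Their log2 fold changes were 0.12 (SE 0.09) and 0.05 (SE 0.06). Values for SPARC, FBN2 and HSPG2 were 0.11 to 0.15, for FBN1 -0.15 (SE 0.26), for TGFBI -0.09 (SE 0.14) and for THBS2 0.02 (SE 0.90). The median was 0.11 over the 10 genes and -0.00048 over all genes tested.

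The spread between libraries was larger here, with a common dispersion of 0.331 against 0.0153 in the TRiC fit, and the values of several genes depended on which PFD pulldown library was left in. Without PFD pulldown replicate 1, the log2 fold changes of FN1, THBS1, SPARC and TNC were 0.25, 0.13, 0.19 and 0.39. With both pulldown libraries they were 0.12, 0.05, 0.11 and 0.28. Without replicate 2, FN1 and THBS1 stood at -0.03. Each of these fits holds a lone pulldown library that is assumed to vary like the inputs, so only effect sizes are given. No gene of any matrix, ER or TGF-beta list was called in the PFD pulldown. DESeq2 called 551 genes in all, 46.5% of them higher, where edgeR called 34, 20.6% of them higher.

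**Figure D4:**
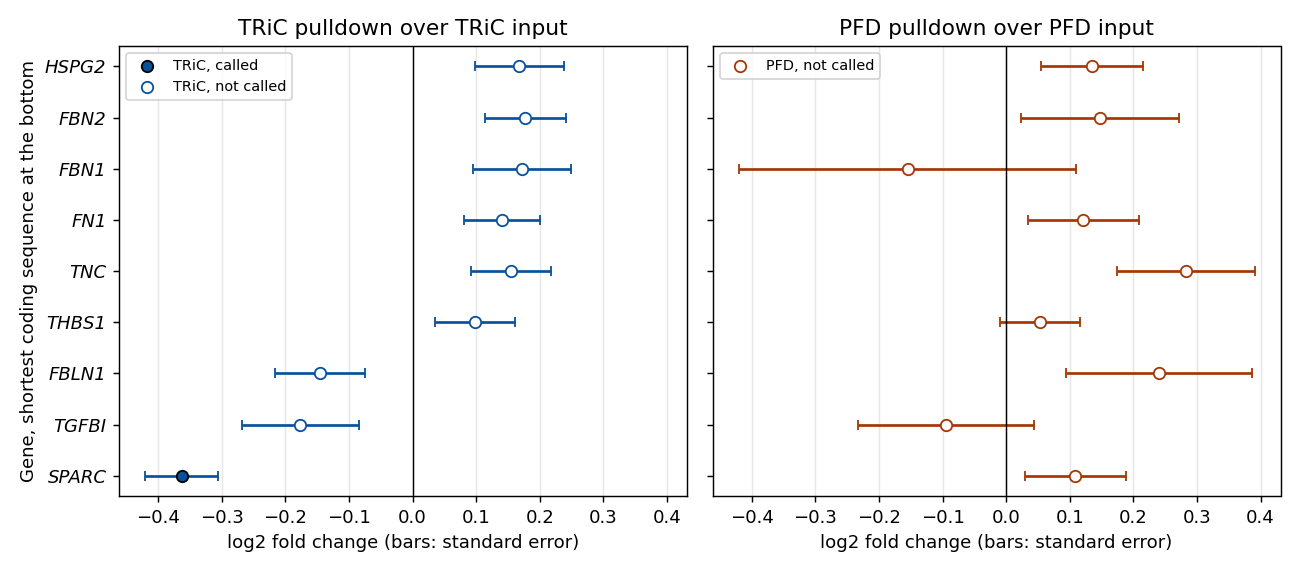
Log2 fold change of pulldown over input for 9 genes in the TRiC line (left) and the PFD line (right), ordered by coding length; bars are standard errors, filled points are called at an adjusted p under 0.05, and THBS2, with few counts, is left out. SPARC in the TRiC pulldown, at -0.36, is the called value, and the bars are wider in the PFD pulldown for each of the 9 genes.

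The difference between the TRiC and PFD enrichments was tested as an interaction over all 8 libraries. None of the 10 genes passed by edgeR's quasi-likelihood test, and 0.0371% of 18855 genes tested did. At an unadjusted p under 0.05, 2 genes passed, near the 14.8% of all genes tested that did: SPARC with a difference of -0.46 in log2 enrichment (SE 0.13, adjusted p = 0.2) and FBLN1 with -0.38 (SE 0.16, adjusted p = 0.337). Both lay below their inputs in the TRiC pulldown, and their log2 fold changes were above 0 in the PFD pulldown. DESeq2 called SPARC (-0.47, adjusted p = 6.49e-05), as did edgeR without a filter on low counts (adjusted p = 0.00106) and without PFD pulldown replicate 1 (-0.58, adjusted p = 0.00565) or 2 (-0.31, adjusted p = 0.0217). Without PFD pulldown replicate 2, FN1 was called higher (adjusted p = 0.0467). For FN1 the difference was 0.03 with an SE of 0.16, and for THBS1 it was 0.06 with an SE of 0.13, so that for these abundant chains no difference between the chaperones was detectable at this spread.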

How the data were processed

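Ribosome-protected fragments of 8 libraries were deposited as counts per gene, raw whole numbers in 1 table for each cell line. The authors used UMI-tools, removed non-coding RNA with Bowtie2 2.4.2, and aligned the rest to hg38 with STAR 2.7.10a, keeping unique alignments and its counts by gene; the annotation release and strand column are not given in the sources used here. Every column was mapped to a sample, and 60463 of 60664 identifiers matched GENCODE 44, which gave names and coding lengths.

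Counts were tested with edgeR 4.0.16 in R 4.3.3 (TMM, filterByExpr, glmQLFit and glmQLFTest, two-sided, Benjamini-Hochberg adjustment over all genes tested, called at an adjusted p under 0.05). Each fit held the 4 libraries compared, or all 8 for the difference between enrichments. The standard errors (SE) given for edgeR were derived from the test. Each is the absolute log2 fold change divided by the square root of the test's F statistic. The error bars in the figures are these values and are not a spread between replicates. CPM were computed from the counts with TMM over all 8 libraries. Replicates are biological per the methods. With 2 per group their spread limits precision, and for genes with few counts, such as THBS2, depth limits it as well. Intervals at 95% cover counting error only.

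The genes and lists were chosen with earlier results of these data known. All 10 genes are reported; from each other list, up to 2 called genes with the highest and 2 with the lowest log2 fold change were named, if their mean count reached 100 and the groups did not overlap; 2 genes this rule picked are not reported here. Alternatives were DESeq2 1.42.0, library totals, cyclic loess with limma 3.58.1, no filter, at least 100 counts in every library, a replicate block, all 8 libraries in 1 fit, and leaving out each library. The fits were tested on simulated data.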

Additional observations from a re-analysis of the deposited data

Results flagged for a closer look

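FBLN1 was called in neither chaperone pulldown, but its values lay on opposite sides of the inputs: both TRiC pulldown libraries lay below both TRiC inputs and both PFD pulldown libraries lay above both PFD inputs. Pulldown and input did not overlap for 60.5% of all genes tested in the TRiC line and 38.2% in the PFD line. The difference in log2 enrichment, TRiC minus PFD, was -0.38 (SE 0.16), and the test of that difference was not passed (edgeR's quasi-likelihood test, adjusted p = 0.337).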

How the results depend on the processing

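Between the inputs, the calls and directions of the 10 genes held under every alternative, apart from FBN2 in the fit of all 8 libraries and THBS2 under the filter of at least 100 counts; that fit called 3858 genes in place of 6583, and leaving out 1 library gave 3626 to 11084. In the TRiC pulldown, 0 of the 10 genes were higher and 1 lower. DESeq2 gave 2 higher, where 1411 of all 17934 genes tested were. Cyclic loess gave 6 higher and 0 lower, where 1569 and 1346 of 17934 were. The filter of at least 100 counts gave 5 higher, where 1699 of 11166 were. The fit of all 8 libraries gave 0 lower, with 31 genes called in place of 3444. Leaving out 1 library gave 0 to 3 higher and 1698 to 4698 genes called. In the PFD pulldown, 34 genes were called, against 551 by DESeq2, 152 without a filter and 83 in the fit of all 8 libraries, and leaving out 1 library gave 71 to 2434, with 0 to 4 of the 10 genes higher. For the difference between enrichments, 7 genes were called, against 1017 by DESeq2 (1 of the 10 lower), 511 without a filter (1 lower), 4 under cyclic loess and 14 with at least 100 counts; leaving out 1 library gave 0 to 3931, with 0 to 1 of the 10 higher and 0 to 1 lower. The causes were not tested.

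Signs turned for values that were mostly uncalled and near 0. In the PFD pulldown, THBS2 was -0.00090 under library totals and -0.36 under cyclic loess, where FN1 was -0.00057 and THBS1 -0.058. Leaving out 1 library gave -1.20 to 0.66 for THBS2, -0.032 to 0.13 for THBS1, -0.035 to 0.25 for FN1 and -0.35 to 0.049 for FBN1. For the difference, TNC was 0.056 under cyclic loess and FN1 -0.0019 without a filter. Leaving out 1 library gave -0.14 to 0.24 for FN1, -0.055 to 0.20 for THBS1, -0.12 to 0.24 for FBN2, -0.055 to 0.17 for HSPG2, -0.26 to 0.066 for TNC and -0.16 to 0.049 for TGFBI.

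Replicate numbers were shared between groups, but deviations of same-numbered libraries correlated at 0.080 (TRiC), -0.0041 (PFD) and 0.039 (inputs), and with 2 numbers they were not taken as pairs. With a replicate block, the TRiC pulldown had 5 of the 10 genes higher (FN1, FBN1, FBN2, TNC and HSPG2) and 2 lower (SPARC and FBLN1). Of all 17934 genes tested in that fit, 2037 were called higher and 2652 lower. With the block, 134 genes were called in the PFD pulldown, where THBS2 was -0.25, and 0 in the difference.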
